A study of Mus musculus with 4 samples.

Results

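Follicular B-2 surface and identity genes are described here as 8 genes out of 32285 in the expression files: Fcer2a, Cr2, Cd55, Icosl, Vpreb3, Neurl3, Lmo2 and Ebf1. They were taken by symbol, and each symbol matched 1 Ensembl gene in both expression libraries. Immune cells positive for CD45 were sorted by flow cytometry from peritoneal lavage fluid of knockout (KO) and wild-type (WT) mice and run on 10x Genomics droplets. Each genotype was represented by 1 gene expression library and 1 B-cell receptor (BCR) library. Both genotypes had been given a high-fat diet from 4 weeks of age for 3 months, so the WT mice carried the diet as well. The labels do not state the number of mice behind a library, nor their sex or strain.

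Follicular B-2 cells are the recirculating B cells that leave the bone marrow throughout life, carry IgM together with IgD and enter the follicles of spleen and lymph nodes. The peritoneal cavity holds them beside B-1 cells, a self-renewing population rich in a few germline-like receptors, among them the IGHV11-2 and IGHV12-3 heavy chains that bind phosphatidylcholine on cell membranes. Follicular B cells are known for CD23, a low-affinity IgE receptor encoded by Fcer2a, and for the complement receptors CD21 and CD35, which mouse Cr2 encodes by splicing. CD21 binds the complement fragment C3d. CD55 limits complement activation on the cell's own surface by speeding the decay of C3 convertases, and ICOSL, the product of Icosl, is the ligand of ICOS on T cells. VPREB3 is a small immunoglobulin-like protein of the secretory pathway of B-lineage cells. NEURL3 is a RING-type ubiquitin ligase of the neuralized family, LMO2 is a LIM-domain adaptor that bridges transcription factors, and EBF1 is the transcription factor that sets B-lineage identity together with PAX5.

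Barcodes were grouped by their heavy chain in the BCR library and by lineage markers in the expression library. Reading KO before WT, the groups held 362 and 118 barcodes with an IGHD constant gene, 462 and 408 with IGHM and IGHV11-2, 585 and 418 with IGHM and IGHV12-3, and 121 and 53 with a switched constant gene. The set of IGHM barcodes with any other V gene was by far the largest, at 8096 barcodes in KO and 3701 in WT. T barcodes numbered 2732 in KO and 1760 in WT, and myeloid barcodes 511 and 141. The KO library held 103953298 unique molecular identifiers (UMIs) over 22516 barcodes and the WT library 81817635 over 10087, with a median of 3298 UMIs per barcode in KO and 6362 in WT. In total 293 barcode sequences occurred in both libraries. Of the IGHM barcodes with other V genes, 57.2% in KO and 12.5% in WT belonged to clones of at least 2 barcodes, so these barcodes are not independent cells. The 3 Cd3 genes summed to 2926 CPM in KO and 2571 CPM in WT T barcodes. The 10 myeloid markers summed to 27880 CPM in KO and 27440 CPM in WT myeloid barcodes. Both sums follow from the gates, which selected barcodes on these same markers. Ighd, the gene of the IgD constant region, was at 344 CPM in KO and 390.2 CPM in WT IGHD barcodes, against 109 CPM in KO and 90.6 CPM in WT IGHM barcodes with other V genes. Ighm exceeded Ighd in IGHD barcodes too, at 694 CPM in KO and 642.5 CPM in WT. In IGHM barcodes with other V genes Ighm was at 1279 CPM in KO and 1213 CPM in WT.

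IGHV11-2 and IGHV12-3 barcodes form the B-cell groups with the lowest levels of these genes, so the commonest heavy-chain CDR3 of each is shown. In both libraries the same nucleotide sequence was the commonest for each V gene.
IGHV11-2 CDR3: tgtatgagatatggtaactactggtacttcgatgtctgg
IGHV12-3 CDR3: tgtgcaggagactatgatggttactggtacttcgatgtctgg
The 39 bases of the IGHV11-2 sequence were found in 164 of 462 KO barcodes, 35.5% (exact 95% interval 31.1 to 40.1), and in 152 of 408 WT barcodes, 37.3% (32.6 to 42.2). The 42 bases of the IGHV12-3 sequence were found in 96 of 585 KO barcodes, 16.4% (13.5 to 19.7), and in 49 of 418 WT barcodes, 11.7% (8.80 to 15.2). KO and WT barcodes shared 12 distinct CDR3 sequences of IGHV11-2 and 42 of IGHV12-3.

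Promoters are shown for the 3 members whose levels followed each other most closely and for Neurl3, which departed from them in T and myeloid barcodes. Each window holds the 250 bases before the annotated start (RefSeq, build GRCm38.p6), 5′ to 3′ on the gene's strand. Capitals mark a match to the octamer ATTTGCAT, the binding sequence of OCT factors in immunoglobulin promoters, or to the palindrome that EBF1 binds, searched as TCCC and GGGA with any 2 bases between them.
Fcer2a, chr8:3694175-3694424, minus strand: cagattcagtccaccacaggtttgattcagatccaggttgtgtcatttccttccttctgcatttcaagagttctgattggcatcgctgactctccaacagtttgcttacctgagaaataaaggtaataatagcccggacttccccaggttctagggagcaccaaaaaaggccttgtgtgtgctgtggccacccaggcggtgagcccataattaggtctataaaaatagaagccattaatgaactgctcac
Cr2, chr1:195176720-195176969, minus strand: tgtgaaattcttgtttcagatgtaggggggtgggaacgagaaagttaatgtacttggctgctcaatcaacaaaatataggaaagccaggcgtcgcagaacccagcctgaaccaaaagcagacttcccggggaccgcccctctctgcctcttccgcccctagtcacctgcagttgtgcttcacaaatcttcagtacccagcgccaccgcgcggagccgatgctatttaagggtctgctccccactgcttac
Vpreb3, chr10:75948050-75948299, plus strand: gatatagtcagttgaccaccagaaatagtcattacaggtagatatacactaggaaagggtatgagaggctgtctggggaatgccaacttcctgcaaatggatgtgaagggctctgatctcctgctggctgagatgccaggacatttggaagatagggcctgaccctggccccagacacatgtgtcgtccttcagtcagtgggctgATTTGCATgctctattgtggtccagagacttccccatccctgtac
Neurl3, chr1:36273426-36273675, minus strand: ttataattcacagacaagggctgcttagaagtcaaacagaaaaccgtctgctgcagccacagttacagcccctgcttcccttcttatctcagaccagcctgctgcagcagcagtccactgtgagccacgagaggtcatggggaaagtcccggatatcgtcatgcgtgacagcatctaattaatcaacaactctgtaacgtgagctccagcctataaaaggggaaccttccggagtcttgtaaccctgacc
Windows were found for 7 of the 8 members, Lmo2 being named only. The octamer was read on both strands and occurred in the Vpreb3 window alone, once, with 37 bases between it and the start, while 1.6% of all 32851 windows held it. The EBF1 palindrome occurred in none of the 7 windows and in 0.779% of all. The E-box CANNTG occurred 5 times in the Vpreb3 window, 3 times in the Cr2 window, once in that of Icosl and not in the other 4, and 66.2% of all windows held at least 1. Fcer2a has 3 annotated starts, of which the one furthest 5′ is shown.

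All 8 genes were highest per UMI in IGHD barcodes in both libraries, apart from Lmo2 in KO, which was higher in switched barcodes. Levels are given as CPM, a gene's share of all UMIs summed over a group on the usual scale, with exact Poisson 95% intervals for counting error. In such sums fewer cells with a transcript and less of it per cell cannot be told apart. Fcer2a stood at 394 CPM in KO and 485 CPM in WT IGHD barcodes. In IGHM barcodes with other V genes it was at 123 CPM in both libraries (KO 119 to 127, WT 119 to 128). IGHV11-2 barcodes had 3.91 CPM in KO and 12.5 CPM in WT, IGHV12-3 barcodes 5.66 and 6.1 CPM, and switched barcodes 69.0 and 93.4 CPM. The order was IGHD, other IGHM, switched and last the IGHV11-2 and IGHV12-3 groups in both libraries. Between those last groups, IGHV12-3 was higher in KO and IGHV11-2 in WT. Neighbours in this order overlapped in their intervals for WT switched barcodes (62.5 to 134) and WT other IGHM barcodes, and for IGHV12-3 and IGHV11-2 in KO. Cr2 had the same order, except that IGHV11-2 was above IGHV12-3 in both libraries. It was at 87.4 CPM in KO and 95.2 CPM in WT IGHD barcodes and at 38.3 and 33.9 CPM in IGHM barcodes with other V genes. In switched barcodes it was at 15.6 CPM in KO and 16.1 CPM in WT. In IGHV11-2 barcodes it was at 4.35 CPM in KO and 5.51 CPM in WT, and in IGHV12-3 barcodes at 2.33 and 3.45 CPM.

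**Figure D1:**
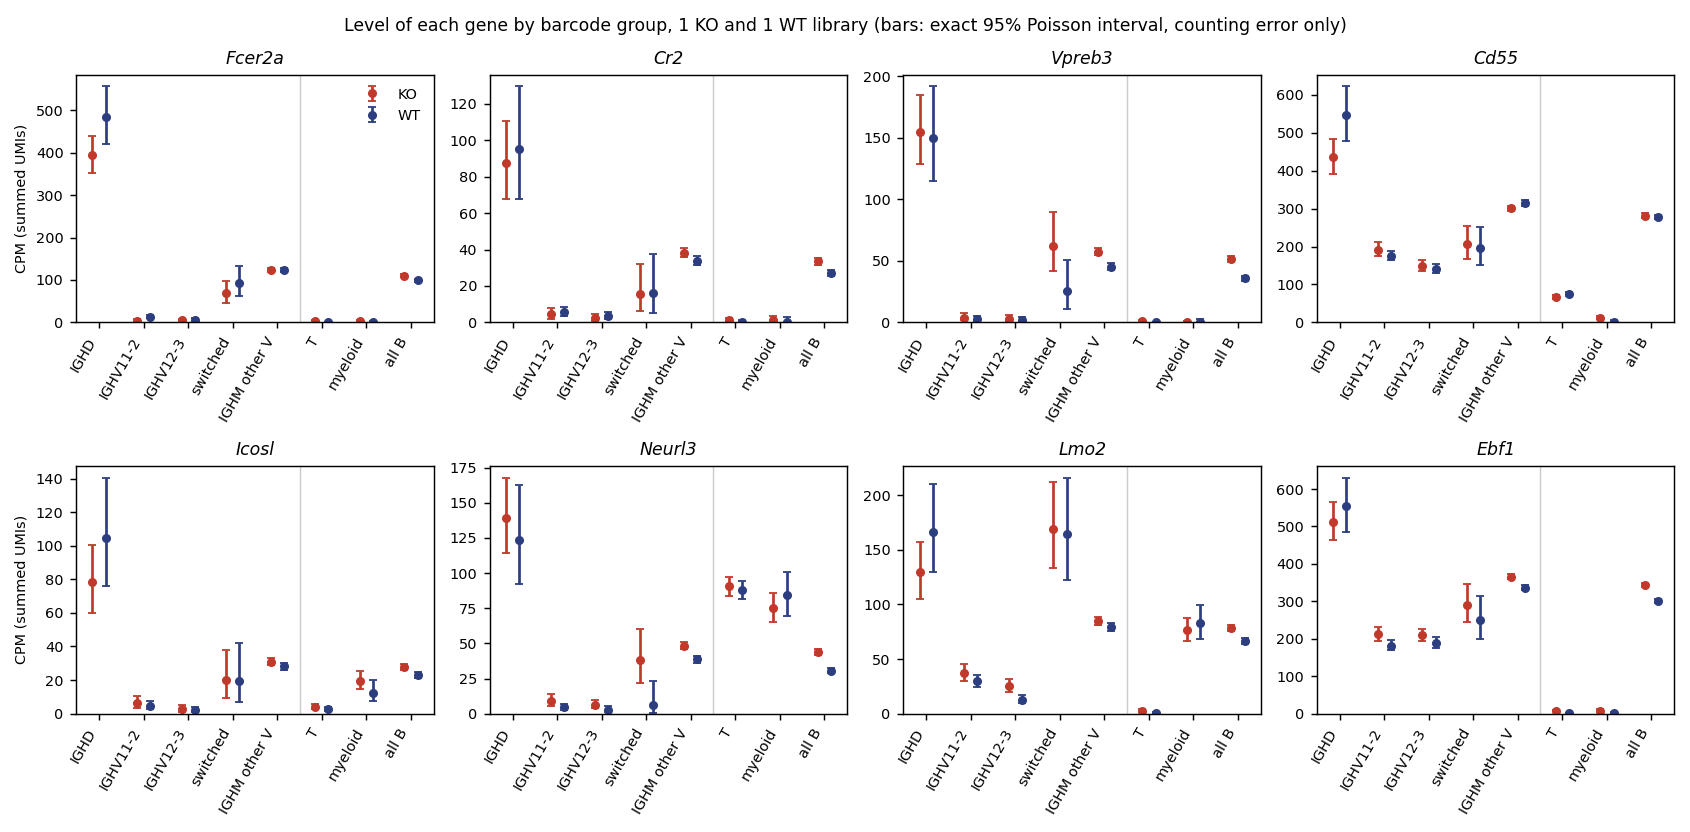
Level of each of the 8 genes in CPM (y axis) by barcode group (x axis), with KO in red left of WT in blue and exact 95% Poisson intervals that cover counting error only. Fcer2a, Cr2 and Vpreb3 fall to near 0 in IGHV11-2, IGHV12-3, T and myeloid barcodes, whereas Neurl3 is high in T and myeloid barcodes and Lmo2 in switched and myeloid ones.

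Among the other surface members, Icosl was at 78.5 CPM in KO and 104.7 CPM in WT IGHD barcodes and at 30.9 and 28.1 CPM in IGHM barcodes with other V genes. Its levels were 6.52 CPM in KO and 4.76 CPM in WT IGHV11-2 barcodes and 2.66 and 2.12 CPM in IGHV12-3 barcodes. Cd55 covered a much narrower range within B cells. It was at 436 CPM in KO and 547 CPM in WT IGHD barcodes, 301 and 315 CPM in IGHM barcodes with other V genes, 192 and 176 CPM in IGHV11-2 barcodes, and 149.7 and 141 CPM in IGHV12-3 barcodes. Mouse Cd55 has a close paralog, Cd55b, so the division of reads between both genes is uncertain. Vpreb3 resembled Fcer2a, at 154 CPM in KO and 149.9 CPM in WT IGHD barcodes, 57.5 and 45.4 CPM in IGHM barcodes with other V genes, and 3.91 and 2.76 CPM in IGHV11-2 barcodes. In switched barcodes it was at 62.3 CPM in KO and 25.8 CPM in WT, on 28 and 8 UMIs.

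Of the regulators, Neurl3 was at 139 CPM in KO and 124 CPM in WT IGHD barcodes, 48.5 and 38.6 CPM in IGHM barcodes with other V genes, 9.13 and 4.51 CPM in IGHV11-2 barcodes, and 6.32 and 2.92 CPM in IGHV12-3 barcodes. Lmo2 had its highest B-cell levels in IGHD and switched barcodes, at 129 CPM in KO and 167 CPM in WT IGHD barcodes, and 169 and 164 CPM in switched barcodes, whose intervals overlapped. IGHM barcodes with other V genes had 84.95 CPM of Lmo2 in KO and 79.1 CPM in WT, IGHV11-2 barcodes 36.9 and 29.6 CPM, and IGHV12-3 barcodes 25.6 and 12.7 CPM. Ebf1 was at 513 CPM in KO and 554 CPM in WT IGHD barcodes, 366 and 337 CPM in IGHM barcodes with other V genes, 213 and 182 CPM in IGHV11-2 barcodes, and 209 and 189.6 CPM in IGHV12-3 barcodes. Ebf1 and Cd55 thus had the smallest differences between B-cell groups of the 8 genes.

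IGHD barcodes were set against IGHM barcodes with other V genes within each library. With 1 library per genotype no test was possible, so a gene is counted here as past the fold at 2-fold or more if it reached 20 CPM in at least 1 of the groups compared, and every ratio carries an exact conditional 95% interval for counting error only. In KO, 5 of 8 members were higher past 2-fold, namely Fcer2a, Neurl3, Vpreb3, Icosl and Cr2, where 2.15% of all 5903 genes at the minimum were. WT had 6 of 8, those 5 and Lmo2, where 4.75% of 5954 genes were. Fcer2a had the largest ratio in both, 3.21 (2.85 to 3.61) in KO and 3.94 (3.40 to 4.54) in WT. Ebf1 had the smallest, 1.401 (1.27 to 1.55) in KO and 1.65 (1.44 to 1.88) in WT, and Cd55 was at 1.45 in KO and 1.74 in WT. The members' median log2 ratio was 1.27 in KO and 1.59 in WT, beside medians over all genes of 0.087 and 0.152. Markers of other cells were present too. Myeloid markers summed to 77.2 CPM over 7 of 10 detected markers in KO IGHD barcodes and to 11.9 CPM over 2 of 10 in WT, against 56.4 CPM over 9 of 10 in KO and 13.9 CPM over 8 of 10 in WT IGHM barcodes with other V genes. NK markers were at 55.7 CPM over 3 of 3 markers in KO IGHD barcodes and at 0 in WT. Their part in the result was not tested.

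**Figure D2:**
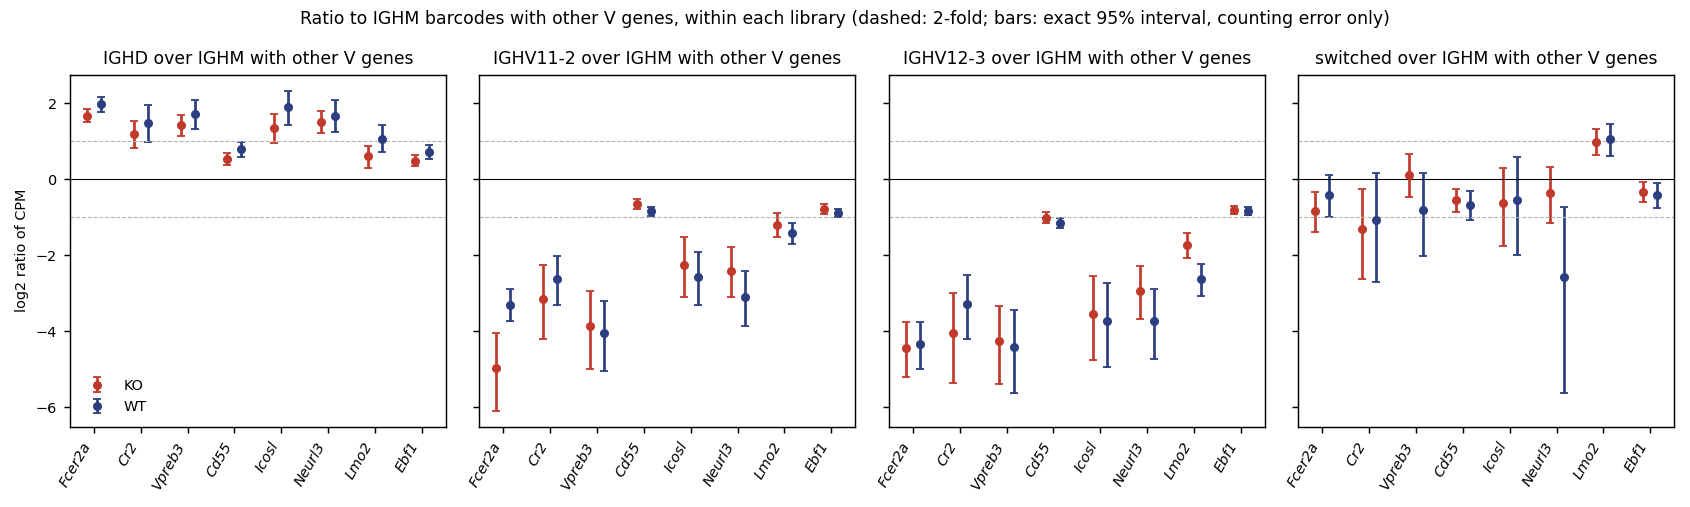
log2 ratio of CPM (y axis) of each gene (x axis) in IGHD, IGHV11-2, IGHV12-3 and switched barcodes over IGHM barcodes with other V genes, KO in red left of WT in blue, with exact 95% intervals and dashed lines at 2-fold. All 8 genes lie above 0 for IGHD and below 0 for IGHV11-2 and IGHV12-3 in both libraries, and in switched barcodes Lmo2 alone lies clearly above 0.

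UMIs per barcode moved with this contrast, because IGHD barcodes were shallower, with medians of 1792.5 UMIs in KO and 3567 in WT, against 2810 in KO and 5518 in WT for IGHM barcodes with other V genes. Thinned to 1000 UMIs each, 31.9% (26.9 to 37.1) of KO and 41.9% (32.8 to 51.4) of WT IGHD barcodes kept a Fcer2a UMI. The shares were 12.9% in KO and 13.8% in WT IGHM barcodes with other V genes, and 0.604% and 0.172% in T barcodes, which should lack it and whose median depths were 2450.5 and 4488.5 UMIs. Shallower barcodes were left out, 26 in KO and 1 in WT for IGHD and 214 and 12 for IGHM. On thinned counts 3 of 8 members were past 2-fold in each library, Fcer2a, Neurl3 and Vpreb3 in KO and Fcer2a, Icosl and Cr2 in WT, where 8.57% of genes in KO and 20.3% in WT were in either direction. WT Vpreb3 was then at 1.53 (0.804 to 2.66) and WT Neurl3 at 1.28 (0.580 to 2.48). Unthinned, the IGHD shares were 49.2% in KO and 71.2% in WT and the IGHM shares 24.8% and 33.9%. Within a window of 2000 to 6000 UMIs the KO ratio of Fcer2a was 2.93 (2.47 to 3.44) and the same 5 of 8 members were past 2-fold, where 7.55% of all genes were in either direction. In WT it was 1.81 (1.55 to 2.10) and none of the 8 passed 2-fold, where 5.88% of all genes did, the others ranging from 1.11 for Lmo2 to 1.65 for Icosl. That window covers 1928 of 3701 WT and 5071 of 8096 KO IGHM barcodes with other V genes, hence different parts of each library's depth range.

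The IGHV11-2 and IGHV12-3 groups lacked most of these transcripts. For IGHV11-2 against IGHM barcodes with other V genes, 6 of 8 members were lower past 2-fold in each library, all but Cd55 and Ebf1, where 3.98% of genes in KO and 3.99% in WT were. For IGHV12-3 it was 7 of 8 in each library, all but Ebf1, where 4.45% of genes in KO and 4.29% in WT were. Fcer2a was lower by 31.4-fold in KO (ratio 0.0319, 0.0146 to 0.0606) and by 9.85-fold in WT (ratio 0.102, 0.0752 to 0.134) in IGHV11-2 barcodes. Vpreb3 had ratios of 0.0681 in KO and 0.0607 in WT for IGHV11-2, and 0.0521 and 0.0468 for IGHV12-3. Cr2 was at 0.113 in KO and 0.163 in WT for IGHV11-2, and at 0.0608 and 0.102 for IGHV12-3. Icosl and Neurl3 lay between 0.0755 and 0.211 over both V genes and libraries. Lmo2 fell less, to ratios of 0.435 in KO and 0.374 in WT for IGHV11-2 and 0.302 and 0.161 for IGHV12-3. Ebf1 ranged from 0.540 to 0.582 and Cd55 from 0.449 to 0.638.

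Here the deeper group was the lower one, as IGHV11-2 barcodes had median depths of 4228 UMIs in KO and 8883.5 in WT and IGHV12-3 barcodes 4606 and 9063.5. Thinned to 1000 UMIs, 0.649% of KO and 0.735% of WT IGHV11-2 barcodes kept a Fcer2a UMI, and 0.517% of KO and 0.721% of WT IGHV12-3 barcodes did. Each of these 4 shares rested on 3 barcodes, and T barcodes had 0.604% in KO and 0.172% in WT. These groups are made of few clones, 97.4% of KO and 94.8% of WT IGHV11-2 barcodes being in clones of at least 2, and 87.0% and 67.7% of IGHV12-3 barcodes. With 1 barcode per clone, 50 in KO and 51 in WT for IGHV11-2, the Fcer2a ratio was 0.0311 (0.000788 to 0.174) in KO and 0.170 (0.0846 to 0.304) in WT. A range above 6000 UMIs was added after the data were seen. There Fcer2a was at 13.1 CPM in WT IGHV11-2 barcodes and 40.5 CPM in WT other IGHM barcodes. The KO levels there were 1.89 and 27.3 CPM. Within 2000 to 6000 UMIs they were 6.05 (on 2 UMIs) and 273 CPM in WT and 4.92 and 121 CPM in KO. WT Vpreb3 was at 2.19 and 6.76 CPM above 6000 UMIs. The part of depth in these ratios was not tested.

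In switched barcodes Cr2, Cd55 and Ebf1 were lower and Lmo2 higher than in IGHM barcodes with other V genes in both libraries. Cr2 was lower past 2-fold in both libraries, with ratios of 0.406 (0.163 to 0.840) in KO and 0.476 (0.154 to 1.12) in WT, on 7 and 5 UMIs. Lmo2 was at 1.99 (1.56 to 2.50) in KO, just under 2-fold, and at 2.08 (1.54 to 2.74) in WT. Cd55 was at 0.687 (0.554 to 0.842) in KO and 0.623 (0.476 to 0.802) in WT, and Ebf1 at 0.796 (0.665 to 0.946) in KO and 0.746 (0.589 to 0.932) in WT. Neurl3 was at 0.780 (0.453 to 1.26) in KO and at 0.167 (0.0202 to 0.605) in WT, the WT value resting on 2 UMIs. In all, 1 of 8 members in KO and 3 of 8 in WT passed 2-fold in either direction, where 6.79% of genes in KO and 8.53% in WT did. By isotype, Lmo2 ranged from 87.3 CPM in 26 IGHA barcodes to 279.9 CPM in 10 IGHG2C barcodes in KO, and from 69.0 CPM in 15 IGHG2B barcodes to 382 CPM in 7 IGHG2C barcodes in WT. Fcer2a was highest in IGHG1 in both, at 228 CPM (109 to 419) over 9 KO barcodes and 298 CPM (109.5 to 649.5) over 3 WT barcodes.

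T and myeloid barcodes split the 8 genes differently. Against all grouped B barcodes, T barcodes had 7 members lower past 2-fold in each library and Neurl3 higher, where 21.9% of genes in KO and 23.0% in WT passed in either direction. Neurl3 was at 90.5 CPM in KO and 87.8 CPM in WT T barcodes, against 43.9 and 30.6 CPM in all B, ratios of 2.06 (1.88 to 2.26) in KO and 2.87 (2.60 to 3.16) in WT. Cd55 kept an intermediate level in T barcodes, 67.2 CPM in KO and 75.0 CPM in WT. Fcer2a was at 3.94 CPM in KO and 0.707 CPM in WT T barcodes and Ebf1 at 7.74 and 1.41 CPM. Cd79a, the B-cell receptor chain that T cells do not make, was at 77.8 CPM in KO and 17.0 CPM in WT T barcodes, and the 4 B markers together at 159 and 38.2 CPM. The T gate held these 4 markers to under 3 UMIs per barcode, at median depths of 2450.5 UMIs in KO and 4488.5 in WT.

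In myeloid barcodes Lmo2 and Neurl3 stood at B-cell levels or above. Lmo2 was at 76.4 CPM in KO and 82.7 CPM in WT myeloid barcodes, against 78.4 and 66.6 CPM in all B. Neurl3 was at 75.0 CPM in KO and 84.1 CPM in WT myeloid barcodes, and its ratio to all B was 1.71 (1.47 to 1.98) in KO and 2.75 (2.24 to 3.34) in WT. Icosl, which antigen-presenting cells also carry, was at 19.3 CPM in KO and 12.6 CPM in WT. Vpreb3 had no UMI in myeloid barcodes of either library, where 3 UMIs would be 1.07 CPM in KO and 2.21 CPM in WT. Fcer2a and Cr2 had 6 and 4 UMIs in KO and none in WT. Counted together, 5 of 8 members were lower past 2-fold in each library, and Neurl3 was higher in WT, where 31.8% of genes in KO and 33.2% in WT passed in either direction.

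KO was then set against WT within each group, with 1.5-fold as the mark. In IGHM barcodes with other V genes 0 of 8 members passed, where 1.37% of 5494 genes did. Fcer2a was level at 0.996 (0.946 to 1.05), and the largest departures were Vpreb3 at 1.27 (1.17 to 1.37) and Neurl3 at 1.26 (1.15 to 1.37). Cd55, the gene furthest below 1, was at 0.956 (0.926 to 0.987). In IGHD barcodes 0 of 8 passed, where 23.8% of genes did in this small group. Fcer2a was at 0.811 (0.678 to 0.973) and Cd55 at 0.796 (0.672 to 0.945), while Neurl3 was at 1.13 (0.802 to 1.60). B-1 genes moved with this contrast, 5 of the 9 at the minimum being higher in KO IGHD barcodes and 1 lower, with a median log2 ratio of 0.767 beside -0.043 over all genes. Among them Anxa2 was at 3.003 (1.69 to 5.74) on 79 KO and 14 WT UMIs, and Ptpn22 at 4.61 (1.41 to 23.8) on 26 and 3 UMIs. Of 19 other follicular genes 4 were lower and none higher. Both lists stand beside 23.8% of all genes past 1.5-fold in either direction. Among the 4, the intervals of Cd200 (0.283 to 1.30) and Id3 (0.395 to 1.08) held 1. Those of Cxcr5 (0.429 to 0.848) and Tnfrsf13c (0.493 to 0.877) did not. The part of B-1 transcripts in the values of the members was not tested. In IGHV12-3 barcodes 1 of the 3 members at the minimum passed, Lmo2 at 2.01 (1.39 to 2.95), where 4.26% of genes did. In the window of 2000 to 6000 UMIs Lmo2 was at 1.03 (0.527 to 2.21), on 46 KO and 11 WT UMIs. Above 6000 UMIs it was at 1.82 (1.08 to 3.04), on 29 KO and 37 WT UMIs. In IGHV11-2 barcodes none of the 3 members at the minimum passed, where 3.69% of genes did. In switched barcodes 2 members passed, Vpreb3 at 2.42 (1.07 to 6.14) and Neurl3 at 5.87 (1.39 to 52.4), where 32.7% of genes did. None of the 2 members at the minimum passed in T or in myeloid barcodes, where 2.06% and 8.27% of genes did. Over all B barcodes 0 of 8 passed, where 1.73% of genes did.

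**Figure D3:**
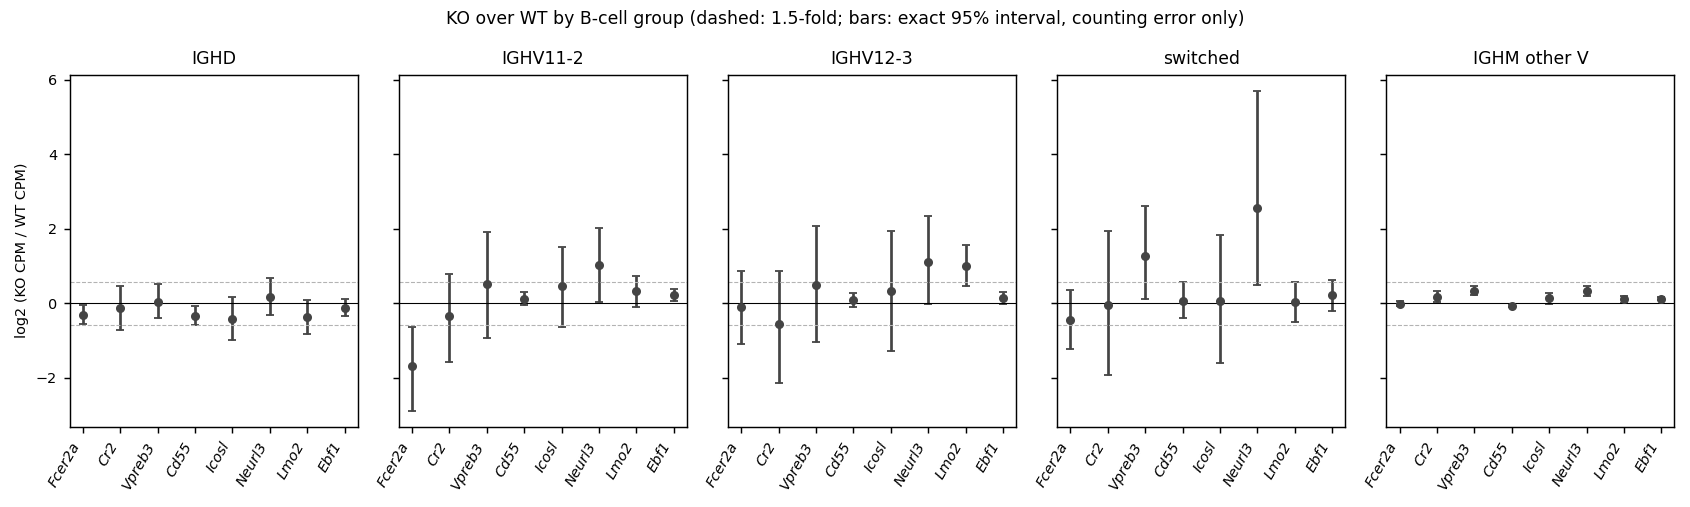
log2 of KO over WT CPM (y axis) for each gene (x axis) in IGHD, IGHV11-2, IGHV12-3, switched and other IGHM barcodes, with exact 95% intervals for counting error only and dashed lines at 1.5-fold. The IGHM panel with other V genes holds all 8 genes inside the dashed lines, and the wide intervals of the switched panel rest on as few as 2 UMIs.

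Within IGHM barcodes with other V genes, the ratio of KO to WT differed along the range of UMIs per barcode. Barcodes were split into terciles of each library's own UMIs, a split chosen after the data were seen. In the lowest tercile, with 506 to 2190 UMIs in KO and 503 to 4226 in WT, Fcer2a was at 279.9 CPM in KO and 360.0 CPM in WT, a ratio of 0.777 (0.719 to 0.841). In the middle tercile it was at 154 CPM in KO and 141 CPM in WT, 1.09 (1.002 to 1.19). In the highest tercile, from 3538 UMIs in KO and 7086 in WT, it was at 59.8 CPM in KO and 31.4 CPM in WT, 1.91 (1.68 to 2.16). Vpreb3 showed the widest spread, with ratios of 0.896 in the lowest, 1.66 in the middle and 4.32 (3.24 to 5.83) in the highest tercile, where it was at 21.5 CPM in KO and 4.98 CPM in WT. In the highest tercile Neurl3 was at 2.92, Icosl at 2.03, Lmo2 at 1.51, Cr2 at 1.504, Ebf1 at 1.22 and Cd55 at 0.992. Every member was lower per UMI in the highest than in the lowest tercile of its own library. Ighd moved along, at 73.4 CPM in KO and 38.6 CPM in WT in the highest tercile, a ratio of 1.90, and the summed B-1 genes were at 5402 CPM in KO and 6522 CPM in WT there, a ratio of 0.828. In the lowest tercile the B-1 sum was at 2240 CPM in KO and 1669 CPM in WT. With 1 library per genotype, depth, clone size and genotype cannot be told apart in these values.

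**Figure D4:**
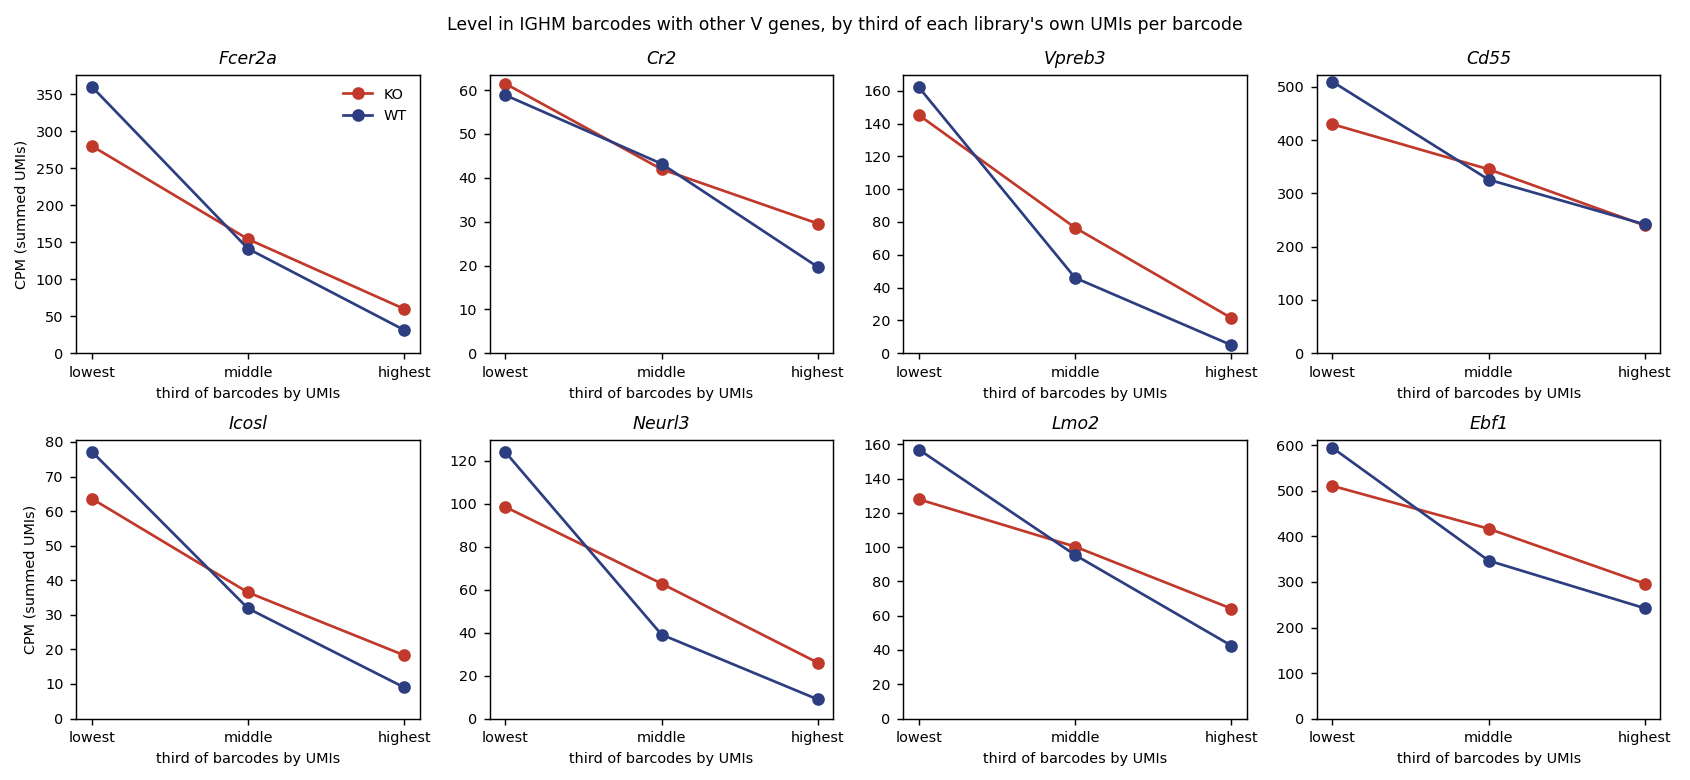
Level of each gene in CPM (y axis) in IGHM barcodes with other V genes, by tercile of each library's own UMIs per barcode (x axis, lowest to highest), KO in red and WT in blue. The lines fall from left to right for all 8 genes, and those of Fcer2a, Vpreb3, Icosl, Neurl3, Lmo2 and Ebf1 cross, with KO below WT in the lowest tercile and above it in the highest.

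In the fixed window of 2000 to 6000 UMIs all 8 members were lower in KO in IGHM barcodes with other V genes. There 5 of 8 were past 1.5-fold, where 4.79% of all genes were in either direction, with Fcer2a at 121 CPM in KO and 273 CPM in WT, a ratio of 0.442 (0.416 to 0.470), Vpreb3 at 0.454, Icosl at 0.507, Neurl3 at 0.555 and Lmo2 at 0.644. Above 6000 UMIs, a range added after the data were seen, Fcer2a was at 27.3 CPM in 731 KO barcodes and 40.5 CPM in 1678 WT barcodes, a ratio of 0.675 (0.560 to 0.809), and Cd55 was at 0.832 and Cr2 at 0.874. The other 5 members lay above 1 there, from 1.02 for Ebf1 to 1.43 (1.002 to 2.02) for Vpreb3. Below 2000 UMIs, with 2294 KO and 95 WT barcodes, Cr2 was at 4.51 (1.23 to 37.5) and Vpreb3 at 3.19 (1.54 to 7.97), and the other 6 lay between 0.630 for Lmo2 and 0.9396 for Cd55. The direction thus differed between members and between depth ranges. Thinning every barcode to 1000 UMIs, which weights barcodes equally, gave a Fcer2a ratio of 0.914 (0.832 to 1.004) and none of the 8 past 1.5-fold. Keeping 1 barcode per clone gave 0.975 (0.923 to 1.03) for Fcer2a and 1.30 (1.19 to 1.41) for Vpreb3.

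The V gene carried by an IGHM barcode marked a graded difference in Fcer2a, beyond IGHV11-2 and IGHV12-3. In 32 V genes with at least 50 IGHM barcodes in each library, Fcer2a ranged from 3.91 CPM (IGHV11-2) to 233 CPM (IGHV1-50) in KO and from 6.1 CPM (IGHV12-3) to 283 CPM (IGHV1-18) in WT. Without IGHV11-2 and IGHV12-3 the range was 49.2 CPM (IGHV6-3) to 233 CPM in KO and 34.3 CPM (IGHV4-1) to 283 CPM in WT. IGHV1-18 was at 220.1 CPM (181 to 265) in KO and 283 CPM (234 to 339.5) in WT, and IGHV1-26 at 213 CPM in both libraries (KO 187 to 241, WT 183 to 246). At the other end, IGHV4-1 was at 51.8 CPM (29.6 to 84.1) in KO and 34.3 CPM (17.7 to 59.97) in WT, and IGHV10-1 at 49.5 CPM in KO and 83.8 CPM in WT. V genes of the IGHV1 family, 15 of the 32 compared, took the highest 7 places for Fcer2a in KO and the highest 8 in WT. Others of the family ranked low, IGHV1-55 taking place 23 in KO and 29 in WT, at 85.4 and 58.7 CPM. Its barcodes were deeper, with means of 3958 UMIs in KO and 7061 in WT, against 3066 and 5163 for IGHV1-18.

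Over those 30 V genes, the KO and WT levels of Fcer2a had a Pearson correlation of 0.79 and a Spearman correlation of 0.75, and with 1 barcode per clone of 0.73 and 0.66. The points share a library on each axis, and mean depth differs between V genes. Lmo2 was at 0.68, Cr2 at 0.63, Vpreb3 at 0.60, Neurl3 at 0.46, Ebf1 at 0.43, Icosl at 0.35 and Cd55 at 0.24 on Pearson's scale. Cd55 and Ebf1 also had the narrowest ranges, the highest V gene being 1.54 times the lowest in KO and 1.95 times in WT for Cd55, and 1.72 times in both for Ebf1. For Fcer2a these ratios were 4.74 in KO and 8.25 in WT.

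**Figure D5:**
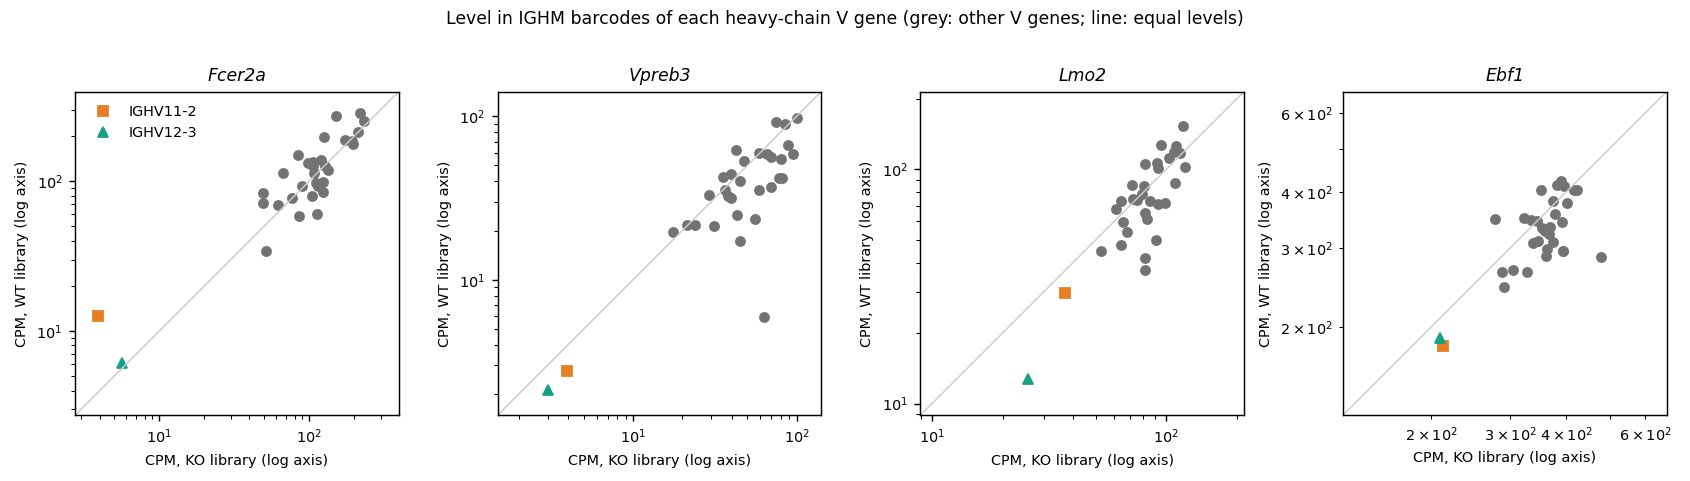
Level of Fcer2a, Vpreb3, Lmo2 and Ebf1 in IGHM barcodes of each of 32 heavy-chain V genes, KO CPM on the x axis and WT CPM on the y axis, both log axes, with the line of equal levels. IGHV11-2 (square) and IGHV12-3 (triangle) lie apart at the low end for Fcer2a and Vpreb3, and the other V genes of Fcer2a spread along the line from about the level of IGHV4-1 to that of IGHV1-18.

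Within single barcodes the members occurred together. Among IGHM barcodes with other V genes thinned to 2000 UMIs, Vpreb3 was seen in 20.1% of KO barcodes with a Fcer2a UMI and in 5.53% of those without, and in 23.6% and 6.17% of WT barcodes. Cr2 was seen in 14.3% with and 4.86% without in KO, and in 15.3% and 4.46% in WT. Icosl, Neurl3 and Lmo2 went the same way, Lmo2 at 26.1% with and 12.0% without in KO and 31.2% and 12.4% in WT. Cd55 was at 51.4% with and 41.1% without in KO and 59.0% and 45.4% in WT. As a ratio of shares, it differed less than Vpreb3, Cr2 and Lmo2. Thinning to 2000 UMIs left out shallower barcodes, 212 of 362 KO and 10 of 118 WT IGHD barcodes. Of IGHM barcodes with other V genes, 2294 of 8096 in KO and 95 of 3701 in WT were left out. Fcer2a was at 289 CPM in those KO IGHM barcodes and at 121 CPM in KO ones with 2000 to 6000 UMIs. Shares of KO and WT thus cover different parts of each library. At least 4 of the 8 genes were seen in 26.7% of KO and 26.9% of WT IGHD barcodes and in 7.46% of KO and 11.4% of WT IGHM barcodes with other V genes. In IGHV11-2 it was 0 of 450 KO barcodes and 1 of 407 WT barcodes, and in IGHV12-3 1 of 560 KO and 0 of 411 WT barcodes.

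Some other genes of follicular B-2 cells were higher in IGHD barcodes too. Of 19 other follicular genes at the minimum, 3 in KO and 6 in WT were higher past 2-fold in IGHD than in other IGHM barcodes, where 2.15% of all genes in KO and 4.75% in WT were, and none was lower. Satb1, a chromatin organizer, was at 160 CPM in KO and 157 CPM in WT IGHD barcodes, ratios of 2.55 in KO and 3.49 in WT. Fcrl1, an Fc receptor-like molecule of naive B cells, was at 2.09 in KO and 2.68 in WT, and Ccr7, the chemokine receptor for entry into lymph nodes, at 2.16 and 2.36. Bcl6, a repressor of germinal-centre B cells, was at 1.92 in KO and 1.58 in WT, and Cd200, an inhibitory surface ligand, at 1.36 in KO and 2.76 in WT. Of 14 B-1 genes at the minimum, 10 in KO and 12 in WT were lower past 2-fold, where 3.0% of all genes in KO and 4.57% in WT were, with Zbtb32 at 0.0907 (0.0391 to 0.179) in KO and 0.0172 on 1 UMI in WT, and Plscr1 at 0.197 in KO and 0.108 in WT. Among 10 transcription factors that work beside EBF1, none passed in KO and 1 did in WT, Irf8, a regulator of B-cell and myeloid development, at 1.47 in KO and 2.17 in WT. The list counts here and in the next paragraph are not matched for depth, and IGHD barcodes were shallower. In IGHM barcodes with other V genes the B-1 sum rose with depth. It went from 2240 to 5402 CPM in KO and from 1669 to 6522 CPM in WT, lowest to highest tercile.

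In IGHV11-2 against other IGHM barcodes, 4 of 17 other follicular genes in KO and 4 of 16 in WT were lower past 2-fold, and for IGHV12-3 it was 7 of 17 and 7 of 16. The shares of all genes that were lower were 3.98% in KO and 3.99% in WT for IGHV11-2, and 4.45% and 4.29% for IGHV12-3. Satb1 was at 0.180 in KO and 0.0446 in WT for IGHV11-2, and Bach2, a repressor of plasma cell fate, at 0.242 and 0.322. B-1 genes were higher past 2-fold for 7 of 16 in KO and 3 of 15 in WT in IGHV11-2, and for 10 of 16 and 4 of 15 in IGHV12-3. The shares of all genes that were higher were 1.5% in KO and 0.853% in WT for IGHV11-2, and 2.49% and 1.8% for IGHV12-3. Cd5, the surface receptor that defines B-1a cells, was at 3.14 in KO and 2.96 in WT for IGHV11-2, and the tetraspanin gene Cd9 at 2.60 and 2.36. Irf8 was lower in both V genes, at 0.310 in KO and 0.297 in WT for IGHV11-2 and at 0.219 and 0.196 for IGHV12-3. Irf8 was the 1 gene of the 10 beside EBF1 that passed in IGHV11-2, and Bcl11a joined it in IGHV12-3, at 0.422 in KO and 0.438 in WT. Of the LMO2 complex, none of the 4 genes at the minimum passed in either V gene. In IGHD barcodes Ssbp2, whose product stabilises the LDB1 partner of LMO2, was higher at 2.72 (1.92 to 3.76) in KO and 3.69 (2.31 to 5.63) in WT, and Ssbp3 was at 0.601 in KO and 0.430 in WT. Of the partner genes of the surface members 0 of 4 passed in IGHD barcodes of either library, with Cd81, a tetraspanin, at 1.004 in KO and 1.05 in WT, and Cr1l, a complement regulator, at 1.11 and 1.44. Of the 2 transitional genes at the minimum, Ms4a4c was higher in IGHD barcodes at 2.30 in KO and 3.16 in WT, and Cd24a was at 0.994 and 0.997. Plac8, from the marginal zone list, was lower in IGHD barcodes at 0.370 in KO and 0.290 in WT. Notch2 was at 0.883 and 0.954, and Hes1 reached the minimum in WT alone, at 2.14 on 10 UMIs.

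Between genotypes, 2 of the 17 other follicular genes at the minimum passed 1.5-fold in IGHM barcodes with other V genes. Of all 5494 genes at the minimum 1.37% did. The 2 were Btla, an inhibitory receptor, at 2.07 (1.84 to 2.32) and Id3, an inhibitor of E proteins, at 0.643 (0.594 to 0.696). None of the 14 B-1 genes or of the 10 factors beside EBF1 passed. Nor did any of the 4 genes each of the marginal zone, partner and LMO2 lists, or the 2 transitional genes. The members' median log2 ratio in that group was 0.128 beside 0.008 over all genes, and that of the B-1 list was -0.155.

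Over the 14 combinations of library and barcode group, the levels of Fcer2a, Cr2 and Vpreb3 followed each other closely, with Pearson correlations of log2(CPM + 10) of 0.98 for Fcer2a with Cr2, 0.98 for Fcer2a with Vpreb3 and 0.97 for Cr2 with Vpreb3. The points share their library and their B or non-B origin, and these values are descriptions. Icosl came next to these 3, at 0.90 with Fcer2a, 0.91 with Cr2 and 0.90 with Vpreb3. Cd55 and Ebf1 formed another pair at 0.90. Neurl3 followed none of them closely, at 0.31 with Fcer2a and -0.32 with Ebf1, its highest value being 0.57 with Icosl. Among 6739 genes, Fcrl1 was the most alike to Cr2 (0.988) and to Vpreb3 (0.974), and B3gnt7, a glycosyltransferase gene, to Fcer2a (0.968), followed by Fcrl1 and Dmxl1. For Ebf1 the nearest were Gga2 (0.994), Pax5 (0.993) and Cd22 (0.992), and for Cd55 they were Tsc22d3 (0.991), N4bp2 and Eif4a2. Lmo2 was most alike to Pik3ap1 (0.980), Irf8 and Bmp2k, Icosl to Lrrk2 (0.958), Inpp5f and Rasgrp3, and Neurl3 to Lats2 (0.965), Ssh2 and Mprip.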

How the data were processed

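The expression files hold UMI counts per gene and barcode, unnormalised as deposited, and the BCR files hold UMI counts per assembled contig with V gene, constant gene and CDR3, as deposited by the authors. Cell Ranger 6.1.2 wrote the matrices per the file headers. The submitters' processing notes list version 6.0.1 of that tool, together with mm39 and Seurat 4.3.0. The labels name a 3' kit. Which annotation was counted is therefore uncertain, and coordinates are given only for the RefSeq promoters. The knocked-out gene and some other items are not reported here.

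Filters were 200 detected genes or more and a mitochondrial share of UMIs below 10%. They left 22327 KO and 10018 WT barcodes. A B barcode had exactly 1 distinct heavy chain, at least 3 UMIs over 4 B-cell markers, Cd79a among them, under 2 over Cd3d, Cd3e and Cd3g and under 5 over 10 myeloid markers. A T barcode had at least 3 Cd3 UMIs and a myeloid barcode at least 5 marker UMIs, each with no contig and under 3 B-cell UMIs. Barcodes with 2 different heavy chains or mixed markers were left out, which stood in for a doublet caller. These are gates, not clusters. A clone shares its heavy V gene, heavy CDR3 and light chains.

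UMIs were summed per group and library and scaled to CPM (python 3.11.15, numpy 2.4.6, scipy 1.17.1, pandas 2.3.3), with exact Poisson, conditional binomial and Clopper-Pearson 95% intervals. They cover counting error only. There was no replicate, so no p-value is given. Genes at 20 CPM in at least 1 group were counted as past the fold at 2-fold between groups and 1.5-fold between genotypes. Shares were compared after thinning to 1000 or 2000 UMIs. The interval step was tested on simulated counts. Alternatives were another denominator, 1 barcode per clone, thinning, a UMI window, a mitochondrial limit of 20%, stricter T and myeloid gates, mixed barcodes kept, Scrublet removal (scanpy 1.11.5), CPM minimums and other folds.

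The members and the 7 gene lists (other follicular B-2, EBF1 partners, B-1, marginal zone, transitional and pre-B, partners, LMO2 complex) were chosen with earlier results of these data known. From each list, up to 4 genes at 20 CPM with the largest absolute log2 ratio could be named. For likeness it was the 3 genes, members set aside, with the highest correlation of log2(CPM + 10). A list gene named from one library is given in the other where it was at the minimum there.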

Additional observations from a re-analysis of the deposited data

Results flagged for a closer look

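The KO over WT ratio of Fcer2a lay on opposite sides of 1 in different groups, with intervals that did not reach 1. It was 5.56 (2.28 to 16.4) in T barcodes, on 30 KO and 6 WT UMIs, and 0.811 (0.678 to 0.973) in IGHD barcodes. In IGHV11-2 barcodes it was 0.312 (0.135 to 0.642), on 9 KO and 50 WT UMIs, and 0.316 (0.128 to 0.678) without the barcode with most Fcer2a UMIs in each library. In T barcodes Cd79a was at 77.8 CPM in KO and 17.0 CPM in WT, and Ebf1 had a ratio of 5.47 (2.91 to 11.2). The part of such B-cell transcripts in the T value was not tested.

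Cd55 differed in the same manner. Its ratio was 5.16 (1.62 to 26.4) in myeloid barcodes, on 32 KO and 3 WT UMIs, against 0.796 (0.672 to 0.945) in IGHD barcodes and 0.956 (0.926 to 0.987) in IGHM barcodes with other V genes. The 3 WT UMIs came from 1 barcode, and 22 KO barcodes had at least 1. At 11.4 CPM in KO and 2.21 CPM in WT, Cd55 was under the 20 CPM minimum in myeloid barcodes. Cd79a was at 42.9 CPM in KO and 5.90 CPM in WT myeloid barcodes. Ebf1 had a ratio of 10.2 (1.64 to 420) there, on 21 KO UMIs and 1 WT UMI. The part of such B-cell transcripts in the myeloid value was not tested. None of these differences between groups was tested, since each genotype had 1 library.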

How the results depend on the processing

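No paired analysis was possible because each genotype had 1 library of each kind and the labels give no replicate numbers. Counts below are members past the fold among those at the CPM minimum, each with the share of all genes past it in either direction. Between genotypes, the 2000 to 6000 UMI window gave 5 in IGHM with other V genes (4.79%), 5 in all B (4.58%), 1 in IGHV11-2 (25.4%), 0 in IGHV12-3 (23.6%) and 1 in myeloid barcodes (52.3%). Thinning to 1000 UMIs gave 2 in IGHD (42.8%), 1 in IGHV11-2 (27.2%), 1 in myeloid (39.5%) and 5 in switched barcodes (50.6%). With 1 barcode per clone IGHV11-2 had 3 (37.0%). A minimum of 50 CPM gave 0 in IGHV12-3 (2.24%) and 1 in switched barcodes (21.5%). No minimum gave 2 in IGHV11-2 (21.8%), 2 in IGHV12-3 (22.5%), 5 in T (20.2%) and 4 in myeloid barcodes (26.9%). Keeping mixed barcodes gave 3 in T (3.24%) and 1 in myeloid barcodes (5.9%). Within libraries, IGHD against other IGHM gave 3 in KO (8.57%) and 3 in WT (20.3%) when thinned, and 0 in WT in the window (5.88%). With a 50 CPM minimum, IGHV11-2 gave 3 in KO (4.99%) and 2 in WT (4.57%), IGHV12-3 gave 4 in KO (6.39%) and 3 in WT (5.69%), switched gave 0 in KO (4.91%) and 1 in WT (4.88%), and T gave 5 in WT (25.8%). Switched against other IGHM in KO gave 2 without immunoglobulin and mitochondrial UMIs (5.17%), 2 with 1 barcode per clone (8.1%), 2 when thinned (19.0%), 2 with mixed barcodes (5.42%), 0 in the window (9.26%) and 4 at 1.5-fold (19.6%). In WT it gave 1 when thinned (26.9%) and 5 at 1.5-fold (23.3%). The Cr2 ratio of WT switched barcodes reversed to 1.48 (0.302 to 4.42) when thinned, and the Neurl3 ratio of WT myeloid barcodes to 0.927 (0.300 to 2.17) in the window. Removing the highest Scrublet scores (17.3% of KO and 6.99% of WT barcodes), the 20% mitochondrial limit and stricter gates moved no count by over 1.5 times. The cause of these changes was not tested. The window, the minimums and 1 barcode per clone leave fewer barcodes or genes. The terciles, the ranges beside the window and the ratios without 1 barcode were chosen after seeing the data.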

Other observations

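Barcodes with 2 different heavy chains, 1396 in KO and 472 in WT, entered no comparison. Their median depth was 5197.5 UMIs in KO and 11805.5 in WT, above every B-cell group of the same library. Fcer2a was at 118 CPM (111 to 126) in KO and 78.2 CPM (71.0 to 85.9) in WT, and Vpreb3 at 47.4 CPM in KO and 26.2 CPM in WT. Neurl3 was at 46.4 CPM in KO and 25.3 CPM in WT, while Cd55 was at 298 and 289 CPM and Ebf1 at 354 and 309 CPM.

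Icos, the receptor of the ligand that Icosl encodes, was at 207.5 CPM in KO and 147 CPM in WT T barcodes, against 1.34 CPM in KO and 0.358 CPM in WT B barcodes. Ssbp2 and Lmo4, of the list around LMO2, were higher in T than in B barcodes, Ssbp2 at 3.78 in KO and 4.77 in WT and Lmo4 at 4.84 and 3.83, although Lmo2 itself was at 2.49 CPM in KO and 0.825 CPM in WT T barcodes. In myeloid barcodes Lmo4 was at 4.69 times the B level in KO and 7.02 times in WT.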
